A study of Homo sapiens with 16 samples.

Results

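The comparison described here sets 72 h of TGF-beta against 0 h in A549, an established line of epithelial cells from a human lung adenocarcinoma. It was chosen by time point alone: the libraries labelled 72 h and 0 h of both replicate numbers, 4 of the 16 libraries of the series, 2 at each time. The study profiled total RNA by deep sequencing over a course of epithelial to mesenchymal transition (EMT), in which epithelial traits are lost and mesenchymal ones gained, in duplicate at 0, 6, 12, 24, 36, 48, 72 and 96 h. The 72 h group is A549 cells harvested 72 h into the transition induced with TGF-beta, and the 0 h group is the same line at the start of the course. The libraries at 24, 48 and 96 h were used for direct contrasts with 72 h, and all 16 for the estimate of spread. The dose and the isoform of TGF-beta are not given in the labels. Every library after 0 h carries the treatment label, so 72 h of TGF-beta and 72 h in culture cannot be told apart. The replicates are not stated to be separate cultures; the p-values below therefore measure the spread between these libraries, part of which may be technical.

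TGF-beta is a secreted cytokine that binds a complex of type I and type II serine/threonine kinase receptors, which phosphorylate SMAD2 and SMAD3. These join SMAD4, enter the nucleus and act with other factors on target genes, among them inhibitors of the pathway such as SMAD7 and matrix genes such as FN1. In epithelial cells the SNAI and ZEB repressors are known to bind E-box sequences in epithelial genes, CDH1 above all. A549 cells carry a loss-of-function change in KEAP1, the factor that marks NRF2 for degradation, so NRF2 targets of antioxidant defence are known to be strongly expressed in the untreated line.

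Values are TPM, transcripts per 1000000, a share of transcripts corrected for gene length, rescaled to that sum after 6 abundant small RNAs were dropped. These small RNAs took 55.1% and 59.6% of the deposited TPM at 72 h, against 51.8% and 51.8% at 0 h. TPM keep no record of read totals, so read depth is not known for any of them and intervals of counting error could not be computed. Genes listed at 0 numbered 30294 and 29278 of 57773 at 72 h, against 30029 and 30138 at 0 h. The correlation of log2 values across genes, which are not independent replicates, was 0.964 between the 72 h libraries and 0.978 between the 0 h libraries. The 0 h libraries differed several-fold in some genes, such as TAGLN, which measured 80.2 TPM in replicate 1 and 9.31 TPM in replicate 2. The epithelial identity of the line was visible in KRT8 and KRT18, at 1210.1 to 5667 TPM in the 4 libraries. NKX2-1, which marks lung epithelium, was listed at 0 in all 4, and the surfactant genes SFTPB and SFTPC stayed under 1 TPM. Of 8 fibroblast markers, 7 were tested and 0 called, and their summed level was 8.46 and 10.8 TPM at 72 h, against 6.27 and 3.09 TPM at 0 h. DPT was listed at 0 in all 4 libraries and PDGFRB, DCN and PDGFRA stayed at or under 1.05 TPM. Erythroid markers summed to less than 1 TPM in each library, and of the endothelial and leukocyte markers only ESAM, CD14, CD68 and LYZ passed the filter on low values, CD14 being called lower at 72 h. The part of these marker transcripts in the results below was not tested.

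Of 21216 genes tested, 742 (3.5%) had a higher and 784 (3.7%) a lower level at 72 h than at 0 h, by limma at an adjusted p below 0.05. The test used log2(TPM + 1), on which the changes of genes with low values come out too small, with the replicate number as a block. All 1526 called genes moved the same way in both replicate numbers. The test favours such agreement, since a call needs a mean change that is large beside the spread between libraries. Among these 1526 genes, 1511 had no overlap between the libraries of the 2 times. Of all tested genes, called or not, 49.2% had none. The genes both called and without overlap were 7.12% of the genes tested. The median log2 fold change of the called genes was 1.56 for those called higher and -1.31 for those called lower, and of all tested genes -0.01. A log2 change of at least 2 was reached by 224 genes called higher and 128 called lower. In bulk samples, fewer cells with a transcript and less of it per cell cannot be told apart.

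Without the replicate block, 317 calls of higher and 270 of lower genes were made, all of them among the calls above. With 1 of the 4 libraries left out, the calls numbered 274 to 387 for higher and 194 to 584 for lower genes, in each case with fewer libraries behind the comparison. With TPM as deposited, small RNAs kept, 353 higher and 716 lower genes were called. On that scale all genes had a median log2 fold change of -0.16, and genes called higher made up 33.0% of the calls in place of 48.6%. Named below are the largest changes, the largest called members of each gene list and a set of fixed markers. Other members that are named, called or not, were picked after their values were seen. Each list is read against the 3.5% and 3.7% of all genes called and their median of -0.01. Where unadjusted p-values are counted, the background is 4187 of 21216 genes below 0.05 by limma. The lists were chosen with earlier results of these data known, so an excess over these shares is a description and not a test.

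**Figure D1:**
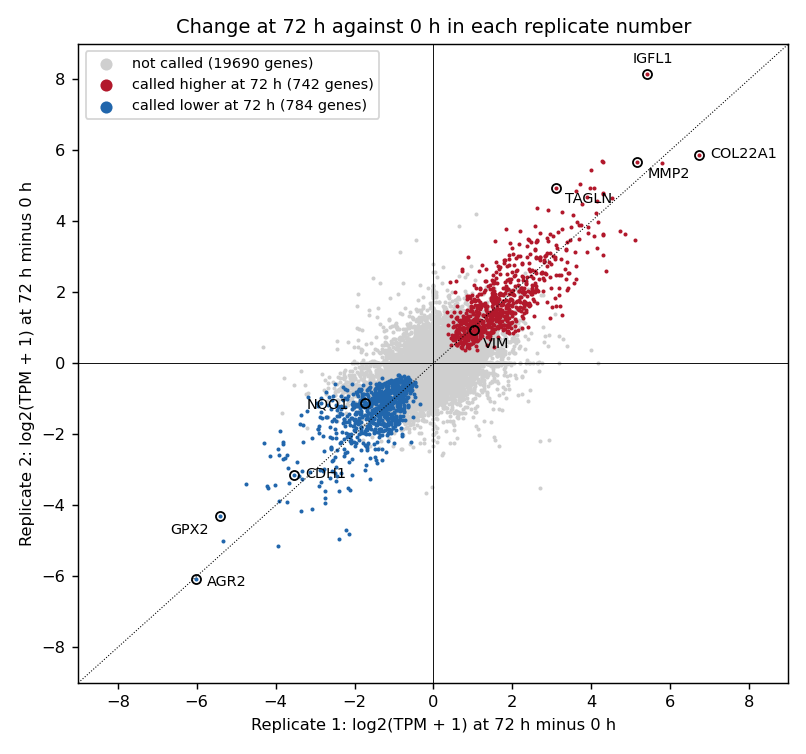
Change in log2(TPM + 1), 72 h minus 0 h, in replicate 1 (x axis) against replicate 2 (y axis), with 1 point per tested gene, red for the 742 called higher, blue for the 784 called lower and grey for those not called. All called genes lie in the quadrants where both replicates moved the same way, and IGFL1 and AGR2 are the most extreme on either side.

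The 15 largest rises, like the 15 largest falls below, were taken from called genes with no overlap between the times. Absence of overlap in them follows from this choice. The rises included genes of the matrix and of cell adhesion. IGFL1, a member of the small insulin growth factor-like family of secreted proteins (chr19:46229752-46231243 on GRCh38), measured 118 and 892 TPM at 72 h, against 1.76 and 2.16 TPM at 0 h (log2 fold change 6.78 ± 0.63 SE, limma adjusted p = 9.31e-05). Its 72 h replicates differed widely, yet both lay far above both 0 h libraries. Its neighbours rose as well. IGFL2 (chr19:46143106-46161299) measured 157 and 110.3 TPM at 72 h, against 1.87 and 1.20 TPM at 0 h (log2 fold change 5.72 ± 0.36 SE, limma adjusted p = 1.27e-05). IGFL3 measured 43.2 and 60.7 TPM at 72 h, against 1.29 and 0.187 TPM at 0 h (log2 fold change 4.99), and IGFL4 measured 25.1 and 22.3 TPM at 72 h, against 3.09 and 1.97 TPM at 0 h (log2 fold change 2.82). All 4 genes of the family, which are similar in sequence and lie close together on chromosome 19, were therefore called higher, with no overlap between the times.

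COL22A1, a collagen of tissue junctions, measured 167 and 69.9 TPM at 72 h, against 0.581 and 0.207 TPM at 0 h (log2 fold change 6.30 ± 0.34 SE, limma adjusted p = 9.32e-06). MMP2, the gelatinase A that degrades type IV collagen (chr16:55389700-55506691), measured 350.2 and 94.4 TPM at 72 h, against 8.82 and 0.871 TPM at 0 h (log2 fold change 5.42 ± 0.37 SE, limma adjusted p = 1.58e-05). ITGA11, the alpha subunit of a collagen-binding integrin (chr15:68296533-68432162), measured 184 and 126 TPM at 72 h, against 8.47 and 1.47 TPM at 0 h (log2 fold change 4.98 ± 0.51 SE, limma adjusted p = 1.46e-04). In MMP2 and ITGA11 the 0 h libraries differed several-fold from each other, replicate 1 being the higher, without reaching either 72 h library. SERPINE2, a secreted inhibitor of thrombin and plasminogen activators, had the highest mean TPM at 72 h among the 15 largest rises, with 1481 and 857 TPM at 72 h, against 74.7 and 29.8 TPM at 0 h (log2 fold change 4.55 ± 0.27 SE, limma adjusted p = 1.20e-05). ADAM19, a membrane-anchored metalloprotease, measured 221 and 100.5 TPM at 72 h, against 11.5 and 3.28 TPM at 0 h (log2 fold change 4.36 ± 0.27 SE, limma adjusted p = 1.27e-05). SPOCK1, a proteoglycan of the testican family, measured 298 and 131 TPM at 72 h, against 21.6 and 3.01 TPM at 0 h (log2 fold change 4.39 ± 0.58 SE, limma adjusted p = 8.12e-04).

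The rest of the 15 largest rises were of mixed kinds. NPTX1, a neuronal pentraxin, measured 242 and 189 TPM at 72 h, against 13.6 and 5.20 TPM at 0 h (log2 fold change 4.50 ± 0.36 SE, limma adjusted p = 3.79e-05). SLN, which encodes the muscle calcium pump regulator sarcolipin, measured 17.3 and 57.1 TPM at 72 h, against 0.145 and 0.332 TPM at 0 h (log2 fold change 4.72 ± 0.54 SE, limma adjusted p = 3.17e-04). LCE3D, a late cornified envelope gene of skin, measured 25.7 and 24.4 TPM at 72 h, against 0.166 and 0 TPM at 0 h (log2 fold change 4.59 ± 0.78 SE, limma adjusted p = 0.00397). R3HDML, a gene of the cysteine-rich secretory protein superfamily, measured 31.1 and 35.1 TPM at 72 h, against 0.643 and 0.311 TPM at 0 h and TNFAIP6, a hyaluronan-binding secreted protein, 32.4 and 38.996 TPM at 72 h, against 1.25 and 0.539 TPM at 0 h. The lowest 72 h library lay above the highest 0 h library in each of these, as the choice required. The long non-coding RNA CTD-2066L21.3 was the remaining gene.

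The 15 largest falls were in genes of several kinds. AGR2, a protein disulphide isomerase of mucus-secreting cells (chr7:16791811-16833433), measured 1.11 and 4.14 TPM at 72 h, against 136 and 344 TPM at 0 h (log2 fold change -6.05 ± 0.46 SE, limma adjusted p = 3.17e-05). ALDH3A1, an aldehyde dehydrogenase that clears lipid aldehydes (chr17:19737984-19748943), measured 18.4 and 51.1 TPM at 72 h, against 774 and 1672 TPM at 0 h (log2 fold change -5.16 ± 0.43 SE, limma adjusted p = 4.83e-05). GPX2, the gastrointestinal glutathione peroxidase (chr14:64939152-64942905), measured 2.43 and 23.1 TPM at 72 h, against 143 and 470.1 TPM at 0 h (log2 fold change -4.84 ± 0.56 SE, limma adjusted p = 3.56e-04). In all 3 genes replicate 2 was higher than replicate 1 at both times, and by the choice both 72 h libraries lay below both 0 h libraries. The call of GPX2 was lost without the block and held with each of the 4 libraries left out in turn. MMP7, the epithelial matrilysin, measured 0.801 and 25.2 TPM at 72 h, against 47.2 and 276 TPM at 0 h (log2 fold change -4.07 ± 0.52 SE, limma adjusted p = 7.13e-04). It thus moved against MMP2. Its 72 h libraries lay far apart, and its call was lost without the block.

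WISP2, a matricellular protein of the CCN family that lacks the C-terminal domain (chr20:44714844-44728509), measured 0.601 and 1.86 TPM at 72 h, against 28.6 and 30.3 TPM at 0 h (log2 fold change -3.83 ± 0.25 SE, limma adjusted p = 1.58e-05). CA12, a membrane carbonic anhydrase, measured 22.9 and 26.2 TPM at 72 h, against 200.1 and 462 TPM at 0 h (log2 fold change -3.58 ± 0.31 SE, limma adjusted p = 7.03e-05). ABCG2, an efflux pump for drugs and urate, measured 1.20 and 3.69 TPM at 72 h, against 27.1 and 47.1 TPM at 0 h (log2 fold change -3.51 ± 0.30 SE, limma adjusted p = 6.34e-05). PPFIBP2, a liprin scaffold protein, measured 0.623 and 2.48 TPM at 72 h, against 25.1 and 36.2 TPM at 0 h (log2 fold change -3.71 ± 0.28 SE, limma adjusted p = 3.17e-05). KRT4, a keratin of stratified mucosa, measured 0 and 0.0496 TPM at 72 h, against 3.40 and 28.2 TPM at 0 h. SLPI, LCN2, CEACAM6, FGA and INHBB are described with their groups. RP11-674N23.1, annotated as an antisense RNA, completed the 15 falls; the labels do not say that strand was kept, so its value is uncertain where a gene overlaps it.

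**Figure D2:**
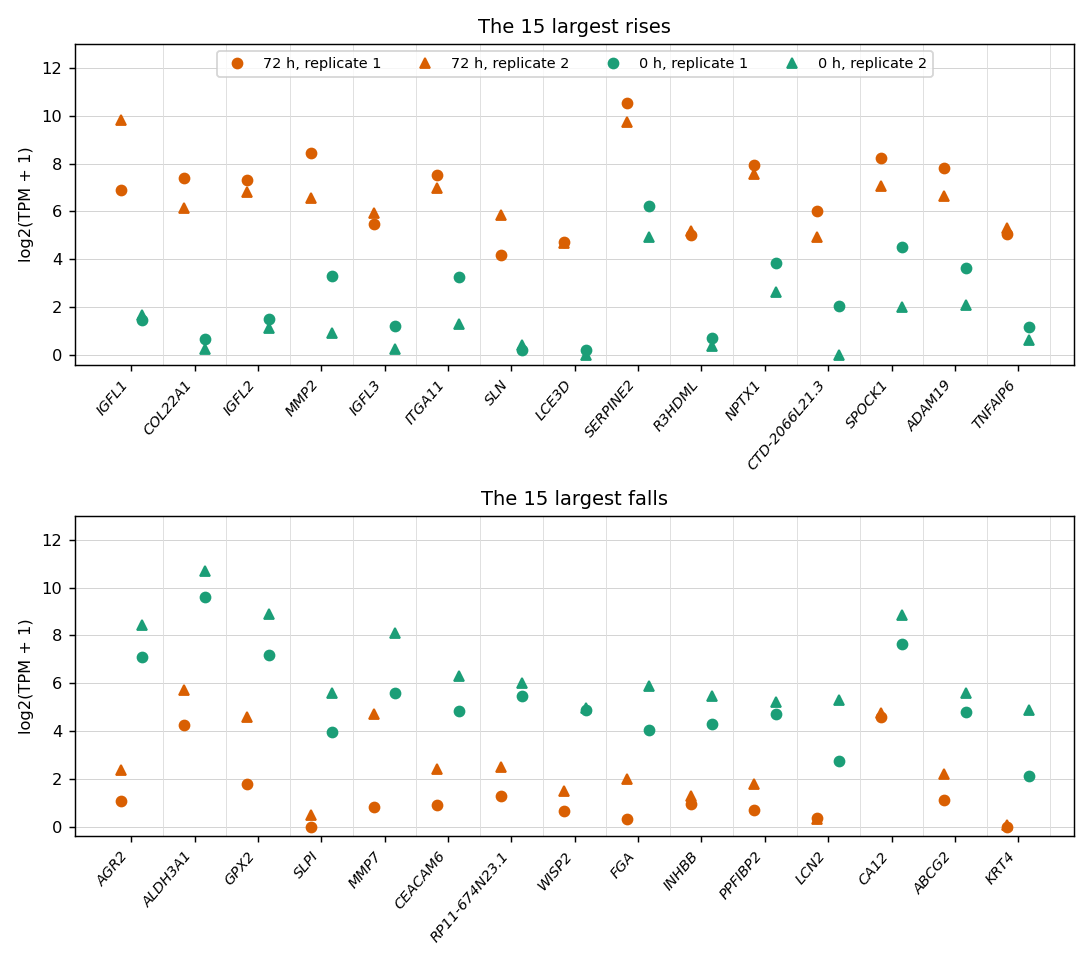
Level in log2(TPM + 1) of the 15 largest rises (upper panel) and 15 largest falls (lower panel), with the 72 h libraries left of the 0 h libraries in each gene and circles and triangles for replicates 1 and 2. The 30 genes were chosen among those without overlap between the times, and replicates of a time lie apart most visibly in genes such as MMP7, KRT4 and IGFL1.

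Genes listed as induced by SMAD signalling were mostly higher at 72 h, and binding of SMAD proteins was not measured. Of 25 listed targets 24 were tested, 15 were called higher and 1 lower, with a median log2 fold change of 1.89. THBS1, the matricellular activator of latent TGF-beta, measured 1423 and 1074 TPM at 72 h, against 122 and 58.4 TPM at 0 h (log2 fold change 3.85 ± 0.30 SE, limma adjusted p = 3.79e-05). TAGLN, the actin-binding protein transgelin, measured 693 and 314 TPM at 72 h, against 80.2 and 9.31 TPM at 0 h (log2 fold change 4.01 ± 0.49 SE, limma adjusted p = 5.05e-04). COL4A1, a chain of basement membrane collagen, measured 519 and 353 TPM at 72 h, against 69.2 and 29.6 TPM at 0 h (log2 fold change 3.21 ± 0.39 SE, limma adjusted p = 4.91e-04). In each of these 0 h replicate 1 was the higher of its pair and still lay below both 72 h libraries. TGFBI, an extracellular adhesion protein, reached the highest level of the group, with 5700.4 and 6848 TPM at 72 h, against 1476 and 648 TPM at 0 h (log2 fold change 2.67 ± 0.36 SE, limma adjusted p = 0.00103). PMEPA1, a membrane protein that dampens SMAD activation, measured 947 and 574 TPM at 72 h, against 152 and 50.3 TPM at 0 h (log2 fold change 3.06 ± 0.32 SE, limma adjusted p = 1.74e-04).

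The feedback inhibitors of the pathway had mixed outcomes. SMAD7, which blocks the type I receptor, measured 80.1 and 40.4 TPM at 72 h, against 33.997 and 17.1 TPM at 0 h (log2 fold change 1.20 ± 0.27 SE, limma adjusted p = 0.0201). Its call was lost when any of the 4 libraries or the replicate block was left out, and its values rose by nearly the same log2 step in each replicate number. SMAD6, an inhibitor best known from BMP signalling, was the only target of the list called lower, with 18.9 and 30.99 TPM at 72 h, against 55.6 and 61.7 TPM at 0 h (log2 fold change -1.24 ± 0.30 SE, limma adjusted p = 0.0290); this call was lost without the block, without 72 h replicate 1 and without either 0 h library. SKIL, a SMAD co-repressor, measured 449 and 172 TPM at 72 h, against 128 and 96.5 TPM at 0 h and was not called (log2 fold change 1.31 ± 0.45 SE, limma adjusted p = 0.116). BAMBI, a decoy receptor, measured 47.5 and 46.1 TPM at 72 h, against 35.3 and 31.8 TPM at 0 h, and was not called. CTGF and CYR61 are sister genes of the CCN family. CTGF measured 409.5 and 110 TPM at 72 h, against 58.3 and 14.2 TPM at 0 h (log2 fold change 2.83 ± 0.58 SE, limma adjusted p = 0.0122). CYR61 measured 96.4 and 16.97 TPM at 72 h, against 69.9 and 23.2 TPM at 0 h and was not called (log2 fold change 0.01 ± 0.51 SE). For the list as a whole, 7 were called higher without the block, and 10 to 12 with 1 library left out.

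Among ligands, receptors and their carriers, 4 of 21 tested (22 listed) were called higher and 3 lower, with a median log2 fold change of 0.09. Activin subunits moved in opposite directions. INHBA, which forms activin A, measured 39.98 and 10.3 TPM at 72 h, against 0.187 and 0.0207 TPM at 0 h (log2 fold change 4.29 ± 0.83 SE, limma adjusted p = 0.00842). INHBB, which forms activin B, measured 0.935 and 1.46 TPM at 72 h, against 18.7 and 43.2 TPM at 0 h (log2 fold change -3.76 ± 0.36 SE, limma adjusted p = 1.06e-04). The call of INHBA was lost without the block, without 72 h replicate 1 and without 0 h replicate 1, whereas that of INHBB held in all settings tried. Of the ligands, TGFB1 measured 86.1 and 40.1 TPM at 72 h, against 24.7 and 18.6 TPM at 0 h (log2 fold change 1.42 ± 0.26 SE, limma adjusted p = 0.00580), and TGFB2 measured 80.8 and 104 TPM at 72 h, against 95.7 and 86.4 TPM at 0 h with no call.

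The type I receptor TGFBR1 was higher, with 248 and 143 TPM at 72 h, against 64.4 and 41.2 TPM at 0 h (log2 fold change 1.85 ± 0.32 SE, limma adjusted p = 0.00480), while the type II receptor TGFBR2 measured 62.05 and 90.9 TPM at 72 h, against 77.9 and 94.3 TPM at 0 h with no call. The co-receptor TGFBR3, or betaglycan, was lower, with 0.913 and 2.16 TPM at 72 h, against 8.49 and 10.99 TPM at 0 h (log2 fold change -2.12 ± 0.43 SE, limma adjusted p = 0.0110). SMAD3 fell to 37.7 and 33.2 TPM at 72 h, against 122 and 162 TPM at 0 h (log2 fold change -1.95 ± 0.24 SE, limma adjusted p = 4.59e-04). Its partners SMAD2 and SMAD4 were not called, with log2 fold changes of 0.25 and 0.09. Without the block 1 gene of this list was called higher and 3 lower, and without 72 h replicate 1 or 0 h replicate 1 none was called higher.

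EMT transcription factors were represented by 12 tested genes of 16, of which 5 were called higher and none lower, with a median log2 fold change of 1.01. The factors called were HMGA2, SNAI2, SOX4, SNAI1 and TCF4. HMGA2, an architectural chromatin protein, measured 75.7 and 54.2 TPM at 72 h, against 7.49 and 11.8 TPM at 0 h (log2 fold change 2.64 ± 0.40 SE, limma adjusted p = 0.00204). SNAI2, a zinc-finger repressor also called Slug, measured 15.1 and 3.52 TPM at 72 h, against 2.08 and 0.104 TPM at 0 h (log2 fold change 2.21 ± 0.40 SE, limma adjusted p = 0.00540). SNAI1, or Snail, was scarce, with 9.17 and 3.05 TPM at 72 h, against 1.85 and 0.643 TPM at 0 h (log2 fold change 1.57 ± 0.31 SE, limma adjusted p = 0.00948). Both SNAI genes lost their call without the block and when any library other than 72 h replicate 2 was left out, and both were higher in replicate 1 than in replicate 2 at each time. SOX4 measured 220 and 171 TPM at 72 h, against 68.6 and 43.4 TPM at 0 h (log2 fold change 1.81 ± 0.18 SE, limma adjusted p = 1.33e-04) and kept its call in every setting tried. ZEB1 measured 62.1 and 37.7 TPM at 72 h, against 28.5 and 27.2 TPM at 0 h. ZEB2 measured 7.88 and 3.07 TPM at 72 h, against 3.32 and 1.41 TPM at 0 h. Neither was called (adjusted p = 0.289 and 0.0543 by limma). The times did not overlap in ZEB1, as in 49.2% of all tested genes, and did in ZEB2. TWIST1 measured 2.76 and 2.73 TPM at 72 h, against 3.86 and 3.32 TPM at 0 h with no call (log2 fold change -0.29 ± 0.33 SE, limma adjusted p = 0.731). Without the block 2 of these factors were called, and 2 to 5 with 1 library left out, the lowest counts being without 72 h replicate 1 or 0 h replicate 1.

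Epithelial junction and polarity genes were called in both directions. Of 27 tested (35 listed) 7 were called lower and 2 higher, and the median log2 fold change was -0.53. CDH1, which encodes E-cadherin of the adherens junction (chr16:68737225-68835548), measured 1.69 and 5.60 TPM at 72 h, against 30.1 and 57.1 TPM at 0 h (log2 fold change -3.33 ± 0.34 SE, limma adjusted p = 1.46e-04). Both 72 h libraries lay well below both 0 h libraries, and the call was lost without the block but held with each of the 4 libraries left out in turn. TJP3, a tight junction scaffold, measured 0.490 and 0.0248 TPM at 72 h, against 3.80 and 4.52 TPM at 0 h (log2 fold change -2.06 ± 0.35 SE, limma adjusted p = 0.00433). LLGL2, a polarity protein of the basolateral membrane, measured 11.2 and 18.8 TPM at 72 h, against 55.9 and 60.9 TPM at 0 h (log2 fold change -1.94 ± 0.33 SE, limma adjusted p = 0.00423). PARD6B, of the apical polarity complex, measured 6.46 and 7.78 TPM at 72 h, against 20.9 and 26.2 TPM at 0 h (log2 fold change -1.60 ± 0.22 SE, limma adjusted p = 0.00103). The desmosomal plakophilins PKP2 and PKP3 were also called lower.

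The opposite change was seen in CLDN4 and DSC2. CLDN4, a claudin of tight junctions, measured 22.02 and 17.8 TPM at 72 h, against 3.01 and 3.57 TPM at 0 h (log2 fold change 2.28 ± 0.49 SE, limma adjusted p = 0.0149). DSC2, a desmosomal cadherin, measured 23.999 and 20.3 TPM at 72 h, against 5.17 and 4.48 TPM at 0 h (log2 fold change 1.99 ± 0.35 SE, limma adjusted p = 0.00468). Neither overlapped between the times, but the call of CLDN4 was lost when any of the 4 libraries was left out and that of DSC2 without 72 h replicate 1 or 0 h replicate 1. EPCAM, a surface marker of epithelium, measured 1.71 and 5.77 TPM at 72 h, against 8.95 and 9.37 TPM at 0 h and was not called (log2 fold change -1.24 ± 0.37 SE, limma adjusted p = 0.0642). The desmosomal genes DSP, DSG2 and JUP had log2 fold changes of 0.61, 0.67 and 0.43 with no call. Leaving out 1 library gave 3 to 5 genes called lower, with 3 without 72 h replicate 1 or 0 h replicate 1, and leaving out the block 4.

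Keratins of simple epithelia had mixed outcomes. KRT18 measured 1504 and 2333 TPM at 72 h, against 4244 and 5667 TPM at 0 h (log2 fold change -1.39 ± 0.22 SE, limma adjusted p = 0.00296). Its partner KRT8 measured 1210.1 and 1993 TPM at 72 h, against 3354 and 4067 TPM at 0 h (log2 fold change -1.25 ± 0.23 SE, limma adjusted p = 0.00637). KRT19 was the most strongly lowered, with 9.57 and 11.8 TPM at 72 h, against 105 and 103 TPM at 0 h (log2 fold change -3.17 ± 0.61 SE, limma adjusted p = 0.00792). KRT7, another type II keratin, measured 2514 and 2197 TPM at 72 h, against 2401 and 2235 TPM at 0 h, with no call (log2 fold change 0.02 ± 0.31 SE). At 0 h KRT7 lay below KRT18 and KRT8 in both libraries, whereas at 72 h it lay above both in replicate 1 and between them in replicate 2. Of the 6, all tested, 3 were called lower and none higher; 1 was called without the block, and 1 when any library other than 72 h replicate 2 was left out.

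Mesenchymal adhesion genes and markers were higher in 8 of 15 tested (18 listed) and lower in 1, with a median log2 fold change of 0.99. CDH2, which encodes N-cadherin, measured 275 and 159.8 TPM at 72 h, against 76.4 and 34.2 TPM at 0 h (log2 fold change 2.01 ± 0.16 SE, limma adjusted p = 3.99e-05). FN1, or fibronectin, reached 2876 and 1574 TPM at 72 h, against 280.3 and 173 TPM at 0 h (log2 fold change 3.27 ± 0.24 SE, limma adjusted p = 2.97e-05). CDH11, a cadherin of mesenchymal cells, measured 87.6 and 20.9 TPM at 72 h, against 2.37 and 0.643 TPM at 0 h (log2 fold change 4.23 ± 0.56 SE, limma adjusted p = 8.93e-04). N-cadherin and E-cadherin thus moved in opposite directions. N-cadherin was the more abundant of the pair in both 72 h libraries and in 0 h replicate 1, and the less abundant in 0 h replicate 2. VIM, the intermediate filament vimentin, was already abundant at 0 h and rose modestly, with 2347 and 1984 TPM at 72 h, against 1148 and 1026 TPM at 0 h (log2 fold change 0.99 ± 0.19 SE, limma adjusted p = 0.00715), a call lost when any library other than 72 h replicate 2 was left out. The remaining called members were NT5E, VCAN, SPARC and FSTL1, with log2 fold changes of 2.80, 2.90, 2.94 and 1.34.

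The gene called lower, S100A4, is a calcium-binding protein often used as a fibroblast marker; it measured 204 and 557 TPM at 72 h, against 688 and 1014 TPM at 0 h (log2 fold change -1.31 ± 0.33 SE, limma adjusted p = 0.0336), and its call was lost in most settings, among them without the block, without 72 h replicate 1 and without either 0 h library. AXL, a receptor kinase linked to mesenchymal states, measured 92.9 and 42.9 TPM at 72 h, against 104 and 63.7 TPM at 0 h with no call. POSTN, FAP and NCAM1 stayed under 1 TPM in all 4 libraries and were not tested. Without the block 4 members were called higher, and 6 to 8 with 1 library left out.

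Among fibrillar and other collagens 5 of 15 tested (17 listed) were called higher and 1 lower, with a median log2 fold change of 1.01. COL1A1, the alpha 1 chain of type I collagen, measured 97.5 and 33.6 TPM at 72 h, against 8.63 and 2.74 TPM at 0 h (log2 fold change 3.28 ± 0.50 SE, limma adjusted p = 0.00225). Its partner chain COL1A2 stayed at or under 0.0445 TPM in all 4 libraries and was not tested. COL5A1, of type V collagen, measured 270 and 68.5 TPM at 72 h, against 49.7 and 8.79 TPM at 0 h (log2 fold change 2.62 ± 0.30 SE, limma adjusted p = 3.17e-04). The calls of COL1A1 and COL5A1 were lost without the block and held with each of the 4 libraries left out in turn, and 2 of the list were called higher without the block. COL5A2 and COL7A1 had log2 fold changes of 1.35 and 1.44 and were called. COL16A1 measured 3.23 and 1.54 TPM at 72 h, against 6.31 and 6.70 TPM at 0 h (log2 fold change -1.20 ± 0.32 SE, limma adjusted p = 0.0450), a call lost when any of the 4 libraries was left out. The type VI chains COL6A1 and COL6A2 were not called.

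Basement membrane genes included 5 called higher and 1 lower of 18 tested (19 listed), with a median log2 fold change of 0.30. LAMA3, the alpha 3 chain of an epithelial laminin, measured 3.45 and 7.48 TPM at 72 h, against 16.9 and 24.4 TPM at 0 h (log2 fold change -1.80 ± 0.28 SE, limma adjusted p = 0.00240), a call lost without the block. LAMB3, a beta chain of the same laminin, measured 18.2 and 9.51 TPM at 72 h, against 18.2 and 13.4 TPM at 0 h with no call (log2 fold change -0.23 ± 0.36 SE, limma adjusted p = 0.826). The times did not overlap in LAMA3 and did in LAMB3. NID1, a linker of laminin and collagen IV, measured 23.9 and 16.1 TPM at 72 h, against 3.53 and 1.78 TPM at 0 h (log2 fold change 2.54 ± 0.45 SE, limma adjusted p = 0.00510). The call of NID1 was lost without 72 h replicate 1 or 0 h replicate 2, and 3 genes of the list were called higher without 0 h replicate 2.

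Of the 18 collagen-modifying enzymes, all tested, 3 were called higher and none lower, with a median log2 fold change of 0.39. P4HA3, a prolyl hydroxylase subunit, measured 182 and 162 TPM at 72 h, against 29.9 and 10.1 TPM at 0 h (log2 fold change 3.22 ± 0.38 SE, limma adjusted p = 3.63e-04). BMP1, the procollagen C-proteinase, measured 113 and 93.3 TPM at 72 h, against 37.8 and 26.8 TPM at 0 h (log2 fold change 1.66 ± 0.17 SE, limma adjusted p = 1.75e-04). P4HA2 was the other gene called, while the lysyl oxidases LOX, LOXL1, LOXL2, LOXL3 and LOXL4 were not, with log2 fold changes from 0.26 to 0.68.

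Integrins, the receptors for matrix, were called higher in 10 of 16 genes and lower in 1, with a median log2 fold change of 0.95. Beside ITGA11, the collagen receptor subunits ITGA2 and ITGA1 were higher. ITGA2 measured 163 and 94.99 TPM at 72 h, against 19.9 and 16.7 TPM at 0 h (log2 fold change 2.70 ± 0.42 SE, limma adjusted p = 0.00244). ITGA1 measured 22.1 and 14.7 TPM at 72 h, against 2.80 and 0.995 TPM at 0 h (log2 fold change 2.79 ± 0.59 SE, limma adjusted p = 0.0133). ITGB6, part of the integrin that frees TGF-beta from its latent complex, measured 56.2 and 61.1 TPM at 72 h, against 14.2 and 7.03 TPM at 0 h (log2 fold change 2.43 ± 0.35 SE, limma adjusted p = 0.00154), and its partner ITGAV measured 487 and 281 TPM at 72 h, against 161 and 101 TPM at 0 h (log2 fold change 1.53 ± 0.30 SE, limma adjusted p = 0.00898). ITGB5, which also pairs with ITGAV, was the only integrin called lower, with 102 and 132 TPM at 72 h, against 198 and 217 TPM at 0 h (log2 fold change -0.83 ± 0.18 SE, limma adjusted p = 0.0162). The other genes called higher were ITGA3, ITGA5, ITGA6, ITGB1 and ITGB3. The count called higher was 3 without the block, 4 when either replicate 1 library was left out, 6 when 0 h replicate 2 was and 7 when 72 h replicate 2 was.

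Contractile and focal adhesion genes were called higher in 8 of 23 tested (24 listed) and lower in 1, with a median log2 fold change of 0.53. After TAGLN, the largest rises were in TNS1 and PDLIM7. TNS1, a tensin of focal adhesions, measured 97.1 and 33.2 TPM at 72 h, against 9.44 and 3.42 TPM at 0 h (log2 fold change 3.09 ± 0.51 SE, limma adjusted p = 0.00357). PDLIM7, an actin-associated scaffold, measured 215 and 117 TPM at 72 h, against 51.97 and 27.2 TPM at 0 h (log2 fold change 2.04 ± 0.22 SE, limma adjusted p = 2.14e-04). MYLK, the myosin light chain kinase, went the other way, with 6.41 and 9.29 TPM at 72 h, against 39.995 and 76.5 TPM at 0 h (log2 fold change -2.69 ± 0.25 SE, limma adjusted p = 9.31e-05), and kept its call in every setting tried. ACTA2, the smooth muscle actin of myofibroblasts, measured 29.6 and 29.8 TPM at 72 h, against 27.9 and 24.6 TPM at 0 h with no call (log2 fold change 0.17 ± 0.42 SE, limma adjusted p = 0.906). CNN1, a smooth muscle calponin, measured 0.890 and 1.68 TPM at 72 h, against 1.25 and 0.663 TPM at 0 h with no call (log2 fold change 0.22 ± 0.44 SE, limma adjusted p = 0.875). Higher values of TAGLN, TNS1, PDLIM7 and TPM1 therefore stood beside no call in ACTA2 and CNN1. The number called higher was 1 without the block and 3 or 4 with 1 library left out, in each of the 4 cases.

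Extracellular proteases and their inhibitors were mostly higher: 13 of 24 tested (25 listed) were called higher and 3 lower, with a median log2 fold change of 1.46. The plasminogen system rose on several sides. PLAU, or urokinase, measured 735 and 278 TPM at 72 h, against 79.3 and 71.9 TPM at 0 h (log2 fold change 2.57 ± 0.29 SE, limma adjusted p = 3.09e-04). Its receptor PLAUR measured 177 and 147 TPM at 72 h, against 31.3 and 35.5 TPM at 0 h (log2 fold change 2.24 ± 0.24 SE, limma adjusted p = 1.88e-04). The inhibitor SERPINE2 is given above. TIMP2, an inhibitor that also helps to activate MMP2, measured 443 and 224 TPM at 72 h, against 73.1 and 47.8 TPM at 0 h (log2 fold change 2.40 ± 0.24 SE, limma adjusted p = 1.38e-04). MMP1, an interstitial collagenase, measured 8.50 and 19.4 TPM at 72 h, against 0 and 0.0622 TPM at 0 h (log2 fold change 3.76 ± 0.54 SE, limma adjusted p = 0.00155), and MMP10, a stromelysin, measured 7.73 and 8.70 TPM at 72 h, against 0.228 and 0.187 TPM at 0 h (log2 fold change 2.93 ± 0.34 SE, limma adjusted p = 3.78e-04). MMP9 measured 3.41 and 0.396 TPM at 72 h, against 0.374 and 0.0415 TPM at 0 h with no call. Besides MMP7, MMP24 and SLPI were lower. SLPI, a secretory inhibitor of leukocyte elastase, measured 0 and 0.396 TPM at 72 h, against 14.5 and 48.05 TPM at 0 h (log2 fold change -4.54 ± 0.76 SE, limma adjusted p = 0.00363), and its call was lost without 0 h replicate 2. Without the block 9 genes of the list were called higher and 2 lower.

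Hyaluronan and matricellular genes were called higher in 7 of 16 tested (18 listed) and lower in 1, which was WISP2. GREM1, a secreted BMP antagonist, measured 93.1 and 80.02 TPM at 72 h, against 5.23 and 4.64 TPM at 0 h (log2 fold change 3.88 ± 0.31 SE, limma adjusted p = 4.28e-05). HAS2, a hyaluronan synthase, measured 33.1 and 26.2 TPM at 72 h, against 5.002 and 6.05 TPM at 0 h (log2 fold change 2.23 ± 0.26 SE, limma adjusted p = 3.80e-04), while HAS3, which makes the same polymer, measured 2.69 and 9.66 TPM at 72 h, against 16.2 and 17.2 TPM at 0 h with no call (limma adjusted p = 0.211). VCAN, a hyaluronan-binding proteoglycan, measured 776 and 1025 TPM at 72 h, against 101 and 139 TPM at 0 h (log2 fold change 2.90 ± 0.35 SE, limma adjusted p = 4.25e-04). Within the CCN family the outcomes were CTGF higher, WISP2 lower and CYR61 and NOV not called. At least 6 genes of the list were called higher without the block and with each of the 4 libraries left out in turn.

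**Figure D3:**
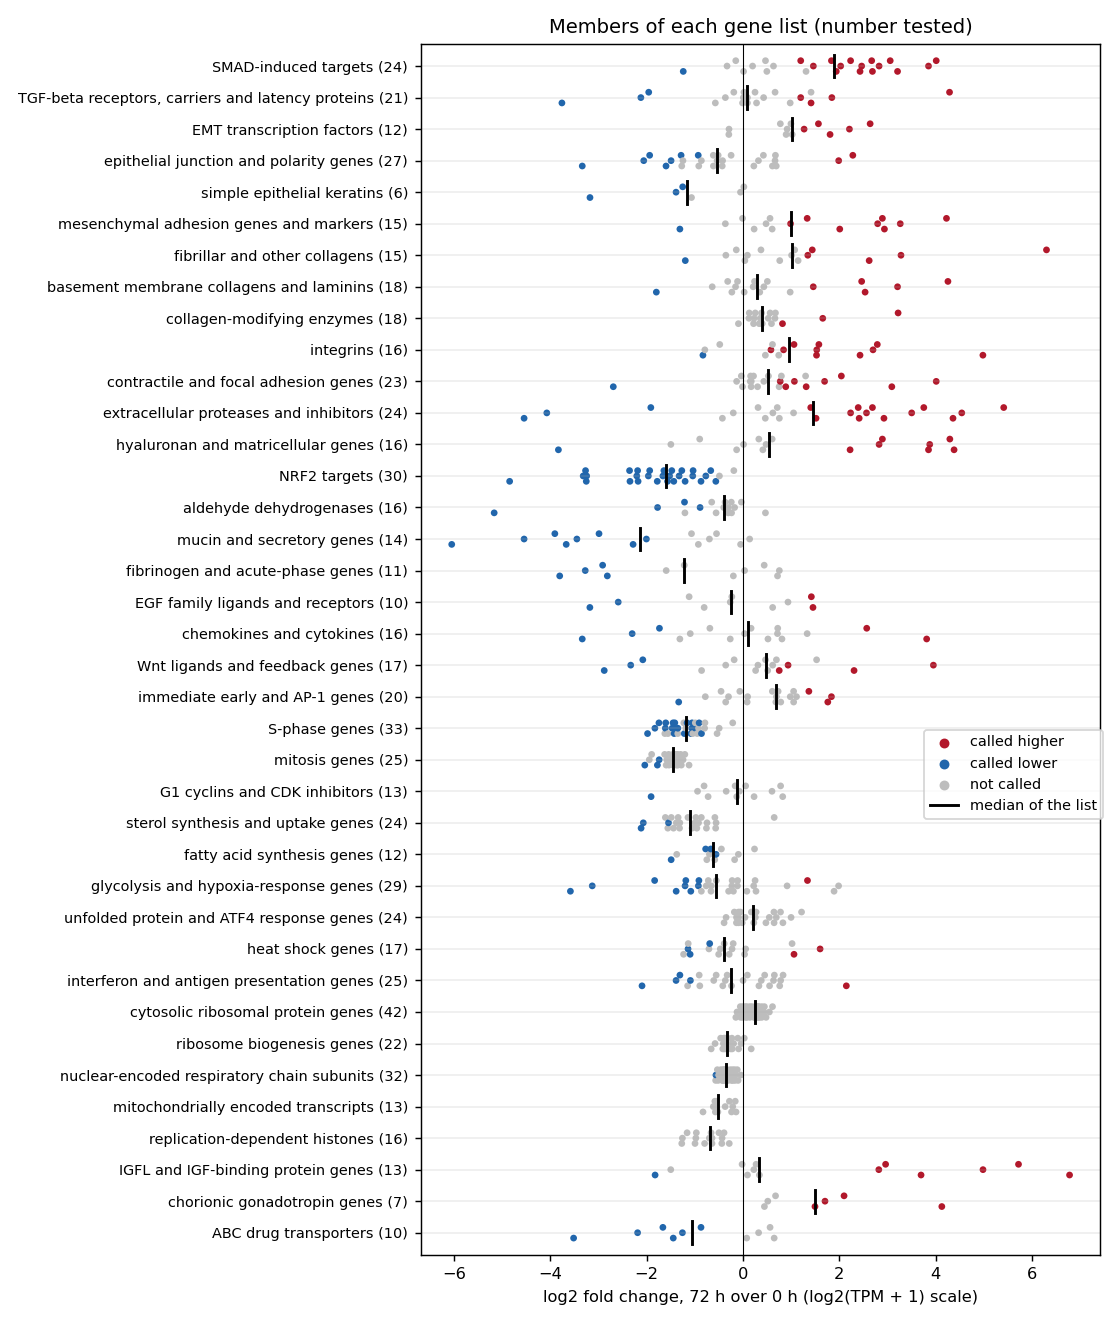
Log2 fold change at 72 h over 0 h (x axis) of each tested member of each gene list (rows, number tested in brackets), red where called higher, blue where called lower and grey where not called, with a black bar at the median. The bars of the SMAD targets and proteases lie to the right and those of the NRF2 targets and secretory genes to the left of 0, while mitosis and sterol genes lie to the left with few calls.

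NRF2 targets made up the list with the most calls. They act in glutathione synthesis, quinone reduction and NADPH supply. Of 30 tested, 28 were called lower and none higher, and the median log2 fold change was -1.60, at -1.64 in replicate 1 and -1.52 in replicate 2. Their summed level was 7865 and 11269 TPM at 72 h, against 32831 and 34881 TPM at 0 h. After GPX2, the largest falls were in OSGIN1, AKR1C2, AKR1B10 and AKR1C1. OSGIN1, an oxidative stress response gene, measured 1.80 and 5.25 TPM at 72 h, against 34.8 and 47.6 TPM at 0 h (log2 fold change -3.32 ± 0.51 SE, limma adjusted p = 0.00220) and kept its call in every setting tried. AKR1C2, an aldo-keto reductase, measured 159.6 and 711 TPM at 72 h, against 3134 and 3377 TPM at 0 h (log2 fold change -3.27 ± 0.54 SE, limma adjusted p = 0.00341); AKR1C genes are near-identical in sequence, so the authors' estimates may divide reads among them. AKR1B10, a retinal and lipid aldehyde reductase, measured 213 and 515 TPM at 72 h, against 2988 and 3343 TPM at 0 h (log2 fold change -3.25 ± 0.40 SE, limma adjusted p = 5.03e-04).

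Other called members act in glutathione synthesis, thioredoxin reduction and iron storage. GCLC, the catalytic subunit of glutathione synthesis, measured 37.9 and 41.97 TPM at 72 h, against 187 and 188 TPM at 0 h (log2 fold change -2.20 ± 0.19 SE, limma adjusted p = 6.34e-05). TXNRD1, thioredoxin reductase, measured 313 and 426 TPM at 72 h, against 1364 and 1435 TPM at 0 h (log2 fold change -1.93 ± 0.19 SE, limma adjusted p = 1.29e-04). NQO1, a quinone reductase, measured 740.1 and 1088 TPM at 72 h, against 2483 and 2372 TPM at 0 h (log2 fold change -1.43 ± 0.22 SE, limma adjusted p = 0.00244). PIR, an iron-binding nuclear protein, measured 14.5 and 31.9 TPM at 72 h, against 94.8 and 136 TPM at 0 h (log2 fold change -2.34 ± 0.21 SE, limma adjusted p = 7.51e-05). The iron store FTL, the most abundant of the group, measured 2204 and 3694 TPM at 72 h, against 10597 and 11678 TPM at 0 h (log2 fold change -1.96 ± 0.27 SE, limma adjusted p = 0.00123).

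The NRF2 targets not called were HMOX1 and SLC7A11. HMOX1, haem oxygenase, measured 137 and 108 TPM at 72 h, against 146 and 131 TPM at 0 h (log2 fold change -0.19 ± 0.31 SE, limma adjusted p = 0.841). SLC7A11, the cystine importer and also a target of ATF4, measured 116 and 59.5 TPM at 72 h, against 119 and 114 TPM at 0 h (log2 fold change -0.49 ± 0.41 SE, limma adjusted p = 0.616). Without the block 15 of the 30 were called lower, and with 1 library left out 15 where 72 h replicate 1 was dropped, 16 and 18 for 0 h replicate 1 and replicate 2, and 22 for 72 h replicate 2.

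Promoters of the NRF2 targets, from 250 bases before to 50 after the start in RefSeq, were searched on both strands for the antioxidant response element TGACNNNGC. It was found in 8 of 21 matched targets (38.1%), against 13.4% of 35116 promoters in the table. A match is a description of the letters and not evidence of binding. GPX2 is shown because it is the NRF2 target with the largest fall and holds both this element, read on the opposite strand, and an E-box (CAGGTG or its reverse complement CACCTG). The promoter lies on the minus strand at chr14:64942696-64942995 of GRCh38.p14, with the E-box beginning 141 and the element 122 bases before the start, both in capitals.
GPX2: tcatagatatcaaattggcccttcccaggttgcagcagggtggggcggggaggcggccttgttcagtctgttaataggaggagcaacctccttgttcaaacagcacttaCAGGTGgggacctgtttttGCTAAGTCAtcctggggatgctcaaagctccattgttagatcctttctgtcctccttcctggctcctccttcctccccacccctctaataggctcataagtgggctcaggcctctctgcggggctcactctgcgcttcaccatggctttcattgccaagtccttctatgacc

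Calls among drug transporters and aldehyde dehydrogenases were in the same direction. Of 10 ABC transporters 6 were called lower and none higher, with a median log2 fold change of -1.06; ABCC1, ABCC2 and ABCC3 belong to the NRF2 list as well. The count was 2 without the block, and 2 to 4 with 1 library left out, the lowest being those that left out 72 h replicate 1 and 0 h replicate 2. Of 16 aldehyde dehydrogenases tested (17 listed) 4 were called lower, 2 of them also without the block and 2 without 72 h replicate 1. ALDH3B1 measured 27.1 and 64.2 TPM at 72 h, against 110.1 and 191 TPM at 0 h (log2 fold change -1.77 ± 0.28 SE, limma adjusted p = 0.00293). ALDH1A1, the most abundant aldehyde dehydrogenase by far, measured 6178 and 11153 TPM at 72 h, against 8903 and 8071 TPM at 0 h with no call (log2 fold change -0.03 ± 0.34 SE, limma adjusted p = 0.991).

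Mucin and secretory genes of the airway and gut fell in 8 of 14 tested (21 listed), and none was called higher. Their median log2 fold change was -2.14, with -1.54 in replicate 1 and -2.79 in replicate 2. After AGR2 and SLPI, CEACAM6, a surface adhesion glycoprotein, measured 0.868 and 4.36 TPM at 72 h, against 27.3 and 78.3 TPM at 0 h (log2 fold change -3.90 ± 0.36 SE, limma adjusted p = 9.31e-05). LCN2, a siderophore-binding lipocalin, measured 0.289 and 0.273 TPM at 72 h, against 5.75 and 38.3 TPM at 0 h (log2 fold change -3.67 ± 0.68 SE, limma adjusted p = 0.00653). Its call was lost without the block, without 72 h replicate 2 and without 0 h replicate 2. The secreted mucin MUC5AC measured 0 and 0.198 TPM at 72 h, against 3.63 and 29.7 TPM at 0 h (log2 fold change -3.45 ± 0.57 SE, limma adjusted p = 0.00358). The goblet cell transcription factor SPDEF measured 0.334 and 0.173 TPM at 72 h, against 5.98 and 13.1 TPM at 0 h (log2 fold change -2.99 ± 0.32 SE, limma adjusted p = 1.94e-04). In these genes 0 h replicate 2 was the highest library of the 4. FOXA1, a pioneer factor of endoderm, measured 12.5 and 10.5 TPM at 72 h, against 11.1 and 12.7 TPM at 0 h with no call. The number called was 6 without the block and 5 to 8 with 1 library left out, with 5 without 0 h replicate 2.

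The 3 fibrinogen chains fell together. FGA measured 0.245 and 2.998 TPM at 72 h, against 15.3 and 58.4 TPM at 0 h (log2 fold change -3.80 ± 0.37 SE, limma adjusted p = 1.06e-04), FGB measured 0.779 and 2.28 TPM at 72 h, against 11.0002 and 44.4 TPM at 0 h (log2 fold change -3.27 ± 0.38 SE, limma adjusted p = 3.41e-04) and FGG measured 0.735 and 5.57 TPM at 72 h, against 11.02 and 52.7 TPM at 0 h (log2 fold change -2.91 ± 0.32 SE, limma adjusted p = 2.60e-04). In all 3 chains replicate 2 was the higher at both times, by several-fold, and the times did not overlap. With CP, or ceruloplasmin, they made up the 4 of 11 tested acute-phase genes (16 listed) called lower, of which 1 was called without the block.

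Proliferation genes had negative median changes in both replicates, of sizes that differed between them. Of 33 S-phase genes, all tested, 19 were called lower and none higher, with a median log2 fold change of -1.18, at -1.48 in replicate 1 and -0.87 in replicate 2. All 33 had negative log2 fold changes, and 29 had an unadjusted limma p below 0.05. TK1, thymidine kinase, measured 19.3 and 78.1 TPM at 72 h, against 145 and 171 TPM at 0 h (log2 fold change -1.98 ± 0.50 SE, limma adjusted p = 0.0327). CDC6, a replication licensing factor, measured 14.4 and 31.3 TPM at 72 h, against 72.3 and 75.2 TPM at 0 h (log2 fold change -1.74 ± 0.38 SE, limma adjusted p = 0.0178). The helicase genes MCM2 to MCM7 were all called lower, with log2 fold changes from -1.61 for MCM2 to -1.05 for MCM3. In each of these genes 72 h replicate 1 was the lowest library and 72 h replicate 2 lay between it and the 0 h libraries. The calls rest on few libraries: 4 were made without the block, 21 without 72 h replicate 2, and none when any other of the 4 libraries was left out.

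Mitosis genes had a larger median change and fewer calls. Of 25 tested, 3 were called lower, with a median log2 fold change of -1.45, at -2.17 in replicate 1 and -0.71 in replicate 2. All 25 had negative log2 fold changes, and 24 had an unadjusted limma p below 0.05. Their summed level was 622 and 2323 TPM at 72 h, against 3047 and 3779 TPM at 0 h. NUSAP1, a spindle protein, measured 18.3 and 87.3 TPM at 72 h, against 148 and 192 TPM at 0 h (log2 fold change -2.04 ± 0.47 SE, limma adjusted p = 0.0222). AURKA and PTTG1 were also called. MKI67, the proliferation marker Ki-67, measured 19.1 and 46.5 TPM at 72 h, against 105 and 123 TPM at 0 h with no call (log2 fold change -1.89 ± 0.78 SE, limma adjusted p = 0.193). The summed level differed more between the 72 h libraries than between 72 h replicate 2 and either 0 h library. Without 72 h replicate 2, 22 of 25 were called lower; without the block, or when any other of the 4 libraries was left out, none was. All 16 histone genes tested had negative log2 fold changes and limma called none, with or without the block. Of these, 6 had an unadjusted limma p below 0.05, beside 4187 of all 21216 genes tested. The median change was -1.15 in replicate 1 and -0.25 in replicate 2. Histone transcripts are near-identical, so their values are uncertain.

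CDKN1A, the cyclin-dependent kinase inhibitor p21, measured 169 and 85.7 TPM at 72 h, against 106 and 58.6 TPM at 0 h with no call (log2 fold change 0.60 ± 0.31 SE, limma adjusted p = 0.321). CCND3, a G1 cyclin, measured 29.2 and 55.6 TPM at 72 h, against 133 and 178 TPM at 0 h (log2 fold change -1.91 ± 0.26 SE, limma adjusted p = 0.00118) and was the only gene called among 13 tested (15 listed) G1 cyclins and inhibitors. CCND1 measured 189 and 101 TPM at 72 h, against 125 and 109.9 TPM at 0 h with no call. CDKN2B was listed at 0 in all 4 libraries, before and after TGF-beta, and why it had no signal was not tested.

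Sterol synthesis genes likewise moved further in replicate 1. Of 24 tested (26 listed) 3 were called lower and none higher, with a median log2 fold change of -1.10, at -1.99 in replicate 1 and -0.34 in replicate 2. A positive log2 fold change was seen in 1 of the 24, and 19 had an unadjusted limma p below 0.05. HMGCS1, an early enzyme of the pathway, measured 31.8 and 73.3 TPM at 72 h, against 237 and 191 TPM at 0 h (log2 fold change -2.11 ± 0.39 SE, limma adjusted p = 0.00653). ACAT2 measured 11.8 and 48.96 TPM at 72 h, against 115 and 95.9 TPM at 0 h (log2 fold change -2.07 ± 0.56 SE, limma adjusted p = 0.0445), and DHCR7, the last reductase, 18.3 and 61.8 TPM at 72 h, against 108 and 93.8 TPM at 0 h (log2 fold change -1.54 ± 0.42 SE, limma adjusted p = 0.0476). All 3 calls were lost without the block and without 72 h replicate 1 or 0 h replicate 1, and 7 were made without 72 h replicate 2. Fatty acid synthesis genes were called lower in 4 of 12 tested (13 listed), with ELOVL6, a fatty acid elongase, at 10.3 and 12.1 TPM at 72 h, against 36.7 and 29.8 TPM at 0 h (log2 fold change -1.49 ± 0.29 SE, limma adjusted p = 0.00898). The count was 1 without the block, 2 without 72 h replicate 2 and 0 when any other of the 4 libraries was left out.

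**Figure D4:**
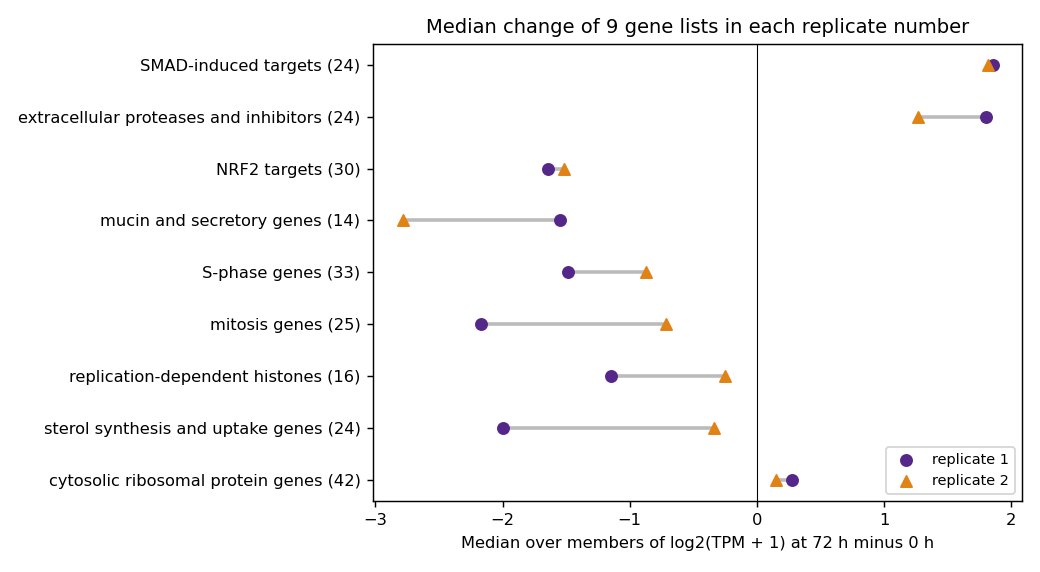
Median over list members of the change in log2(TPM + 1), 72 h minus 0 h, in replicate 1 (circles) and replicate 2 (triangles), with the number of tested genes in brackets. SMAD and NRF2 targets moved by like amounts in both replicates, whereas mitosis genes (-2.17 and -0.71) and sterol genes (-1.99 and -0.34) moved further in replicate 1.

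Glycolysis and hypoxia-response genes were called lower in 9 of 29 tested (30 listed) and higher in 1, with a median log2 fold change of -0.55. ADM, the vasodilator peptide adrenomedullin, measured 6.01 and 13.1 TPM at 72 h, against 76.3 and 96.7 TPM at 0 h (log2 fold change -3.13 ± 0.38 SE, limma adjusted p = 5.20e-04). ALDOC, an aldolase isoform, measured 1.05 and 2.35 TPM at 72 h, against 7.16 and 9.66 TPM at 0 h (log2 fold change -1.83 ± 0.31 SE, limma adjusted p = 0.00382). ENO1, ALDOA and GPI of the central pathway were also called lower. SLC2A3, a glucose transporter, was the gene called higher, with 78.4 and 165 TPM at 72 h, against 40.4 and 48.7 TPM at 0 h (log2 fold change 1.34 ± 0.25 SE, limma adjusted p = 0.00653), a call lost without the block, without 72 h replicate 2 and without 0 h replicate 2. VEGFA, the vascular growth factor, measured 166 and 55.5 TPM at 72 h, against 23.4 and 26.9 TPM at 0 h with no call (log2 fold change 1.89 ± 0.53 SE, limma adjusted p = 0.0513). Calls of lower genes numbered 6 without the block, 2 without 72 h replicate 1, 4 without either 0 h library and 8 without 72 h replicate 2.

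Secreted signals were divided within each family. IL11, a fibrogenic cytokine of the IL-6 family, measured 727 and 351 TPM at 72 h, against 53.7 and 22.6 TPM at 0 h (log2 fold change 3.82 ± 0.29 SE, limma adjusted p = 3.17e-05). GDF15, a stress-induced TGF-beta family member, measured 11.2 and 5.28 TPM at 72 h, against 80.03 and 94.9 TPM at 0 h (log2 fold change -3.34 ± 0.39 SE, limma adjusted p = 3.56e-04). IL32 measured 64.2 and 18.98 TPM at 72 h, against 8.39 and 2.92 TPM at 0 h (log2 fold change 2.57 ± 0.28 SE, limma adjusted p = 2.60e-04), and CXCL5, a neutrophil chemokine, 15.9 and 25.02 TPM at 72 h, against 93.2 and 112 TPM at 0 h (log2 fold change -2.30 ± 0.56 SE, limma adjusted p = 0.0294). Of 16 chemokines and cytokines tested (20 listed) 2 were called higher and 3 lower, the third being CSF1; the call of CXCL5 was lost without the block and when any of the 4 libraries was left out. EGF family ligands were higher in HBEGF and NRG1 and lower in AREG and EREG. AREG, or amphiregulin, measured 2.07 and 8.25 TPM at 72 h, against 46.2 and 48.3 TPM at 0 h (log2 fold change -3.18 ± 0.63 SE, limma adjusted p = 0.0103), and NRG1, neuregulin, 460.1 and 419 TPM at 72 h, against 221 and 120.1 TPM at 0 h (log2 fold change 1.42 ± 0.35 SE, limma adjusted p = 0.0309). The calls of HBEGF and NRG1 were lost when any of the 4 libraries was left out, that of AREG without 72 h replicate 1 or either 0 h library, and that of EREG without 72 h replicate 1 or 0 h replicate 1.

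Wnt ligands showed a like division. WNT5B measured 66.9 and 25.4 TPM at 72 h, against 2.45 and 1.16 TPM at 0 h (log2 fold change 3.96 ± 0.49 SE, limma adjusted p = 5.78e-04) and kept its call in all settings tried. WNT7A measured 7.77 and 2.03 TPM at 72 h, against 0.0830 and 0 TPM at 0 h (log2 fold change 2.31 ± 0.51 SE, limma adjusted p = 0.0183) and its paralogue WNT7B 13.4 and 6.02 TPM at 72 h, against 38.2 and 45.02 TPM at 0 h (log2 fold change -2.08 ± 0.56 SE, limma adjusted p = 0.0467); the call of WNT7B was lost when any of the 4 libraries was left out, and that of WNT7A when any other than 0 h replicate 2 was. DKK1, a secreted Wnt inhibitor, measured 20.6 and 42.8 TPM at 72 h, against 147 and 345 TPM at 0 h (log2 fold change -2.88 ± 0.34 SE, limma adjusted p = 4.14e-04). Of the 17 genes tested (18 listed) 4 were called higher and 3 lower. Without the block 1 was called higher and none lower, and with 1 library left out 1 or 2 were called higher.

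IGF-binding proteins were likewise split. IGFBP5 measured 23.9 and 10.8 TPM at 72 h, against 0.394 and 0.249 TPM at 0 h (log2 fold change 3.70 ± 0.34 SE, limma adjusted p = 9.31e-05). IGFBP7 measured 840.3 and 1053 TPM at 72 h, against 184 and 77.6 TPM at 0 h (log2 fold change 2.96 ± 0.38 SE, limma adjusted p = 7.13e-04). IGFBP6, which prefers IGF-II, measured 25.2 and 24.5 TPM at 72 h, against 92.5 and 88.2 TPM at 0 h (log2 fold change -1.82 ± 0.26 SE, limma adjusted p = 0.00158). With the 4 IGFL genes, 6 of 13 were called higher and 1 lower, and these counts were the same without the block and with each of the 4 libraries left out in turn. Chorionic gonadotropin beta genes, hormone subunit genes of placenta, were called higher in 4 of 7 tested (8 listed). CGB8 measured 35.9 and 42.3 TPM at 72 h, against 1.72 and 0.912 TPM at 0 h (log2 fold change 4.13 ± 0.28 SE, limma adjusted p = 1.58e-05), a call that held in every setting tried, while the list had 2 calls without the block, 1 without 72 h replicate 2 and 2 when any other of the 4 libraries was left out. These genes are near-identical copies, so the division of reads among them is uncertain, and the alpha subunit gene CGA was listed at 0 in all 4 libraries.

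Several housekeeping and stress groups held few or no calls. None of 42 cytosolic ribosomal protein genes, 24 unfolded protein and ATF4 response genes, 22 ribosome biogenesis genes or 13 mitochondrially encoded transcripts was called by limma. Their median log2 fold changes were 0.25, 0.20, -0.33 and -0.52, and 0, 3, 6 and 1 of them had an unadjusted p below 0.05. Of all 21216 genes tested, 4187 had an unadjusted limma p below 0.05. Of 32 nuclear-encoded respiratory chain subunits all had negative log2 fold changes, with a median of -0.34, and 13 had an unadjusted p below 0.05. NDUFV2 was called lower, a call lost without the block and when any of the 4 libraries was left out. In the ATF4 group, without a call, ASNS, asparagine synthetase, measured 206 and 31.9 TPM at 72 h, against 66.5 and 40.01 TPM at 0 h, and CHAC1, a glutathione-degrading enzyme, 18.6 and 1.29 TPM at 72 h, against 2.10 and 1.68 TPM at 0 h. In both genes 72 h replicate 1 was the highest of the 4 libraries. Of 20 immediate early genes tested (21 listed) 3 were called higher and 1 lower. FOS was not called and measured 127 and 7.88 TPM at 72 h, against 81.1 and 4.02 TPM at 0 h, and EGR1, likewise, 41.4 and 0.471 TPM at 72 h, against 18.7 and 0.207 TPM at 0 h. Both were higher in replicate 1 than in replicate 2 at each time.

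The direct contrasts of 72 h with neighbouring times asked whether the 72 h profile was still changing, with the 0 h libraries entering only the shared estimate of spread and of the replicate block. Against 24 h, 4 genes were called higher (0.0189% of those tested) and 9 lower (0.0424%). IGFL2 measured 157 and 110.3 TPM at 72 h, against 26.4 and 16.6 TPM at 24 h (log2 difference 2.59 ± 0.36 SE, limma adjusted p = 0.0298). HAS2 measured 33.1 and 26.2 TPM at 72 h, against 7.84 and 6.25 TPM at 24 h (log2 difference 1.93 ± 0.26 SE, limma adjusted p = 0.0292). NREP, a neuronal regeneration-related protein, measured 129 and 86.96 TPM at 72 h, against 37.9 and 27.7 TPM at 24 h (log2 difference 1.68 ± 0.23 SE, limma adjusted p = 0.0292). HAS2 measured 5.002 and 6.05 TPM at 0 h, so both 24 h libraries were within a few TPM of it. HTRA1, a secreted serine protease that can cleave TGF-beta family proteins, measured 322 and 258 TPM at 72 h, against 100.1 and 103 TPM at 24 h (log2 difference 1.497 ± 0.18 SE, limma adjusted p = 0.0190). In these 4 genes the values at 48 h lay above both 24 h libraries, as did those at 96 h.

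CNN1, which was not called at 72 h against 0 h, had the largest of these differences. It measured 0.890 and 1.68 TPM at 72 h, against 10.1 and 24.9 TPM at 24 h (log2 difference -2.91 ± 0.44 SE, limma adjusted p = 0.0421), and its 0 h values overlapped those at 72 h. WISP2 measured 0.601 and 1.86 TPM at 72 h, against 7.0004 and 14.1 TPM at 24 h (log2 difference -2.36 ± 0.25 SE, limma adjusted p = 0.0155). AP1M2, a subunit of the epithelial clathrin adaptor for basolateral sorting, measured 3.67 and 13.8 TPM at 72 h, against 30.5 and 47.8 TPM at 24 h (log2 difference -2.24 ± 0.32 SE, limma adjusted p = 0.0379). SULT2B1, a sterol sulphotransferase of epithelia, measured 3.36 and 13.8 TPM at 72 h, against 22.5 and 46.1 TPM at 24 h (log2 difference -2.05 ± 0.26 SE, limma adjusted p = 0.0190). At 24 h AP1M2 was above both of its 0 h values of 28.4 and 27.4 TPM, and at 72 h below both. The long non-coding RNA AC006273.5 was lower too, and AP003550.1, ACOX3, ACP2 and PDXK, named after their values were seen, made up the remaining calls.

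Calls between 72 h and 24 h depended on the fit: 13 in all, 2 without the block, and with 1 library left out 5 without 72 h replicate 2 and none in the other 3 cases. Against 48 h and against 96 h limma called no gene at an adjusted p below 0.05. Genes listed at 0 numbered 36294 in 48 h replicate 2 and 36116 in 36 h replicate 2, which entered the spread. In the other libraries they numbered 29278 to 31187. The part of these 2 libraries in the absence of calls was not tested. At an unadjusted p below 0.05 there were 1624 genes between 72 h and 48 h and 340 between 72 h and 96 h, of 21216 tested. Under other settings the number called ranged up to 3 for 48 h and up to 17 for 96 h. All genes had a median log2 difference of 0.18 for 72 h over 48 h, a shift of the whole scale, and 0.06 for 72 h over 96 h.

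**Figure D5:**
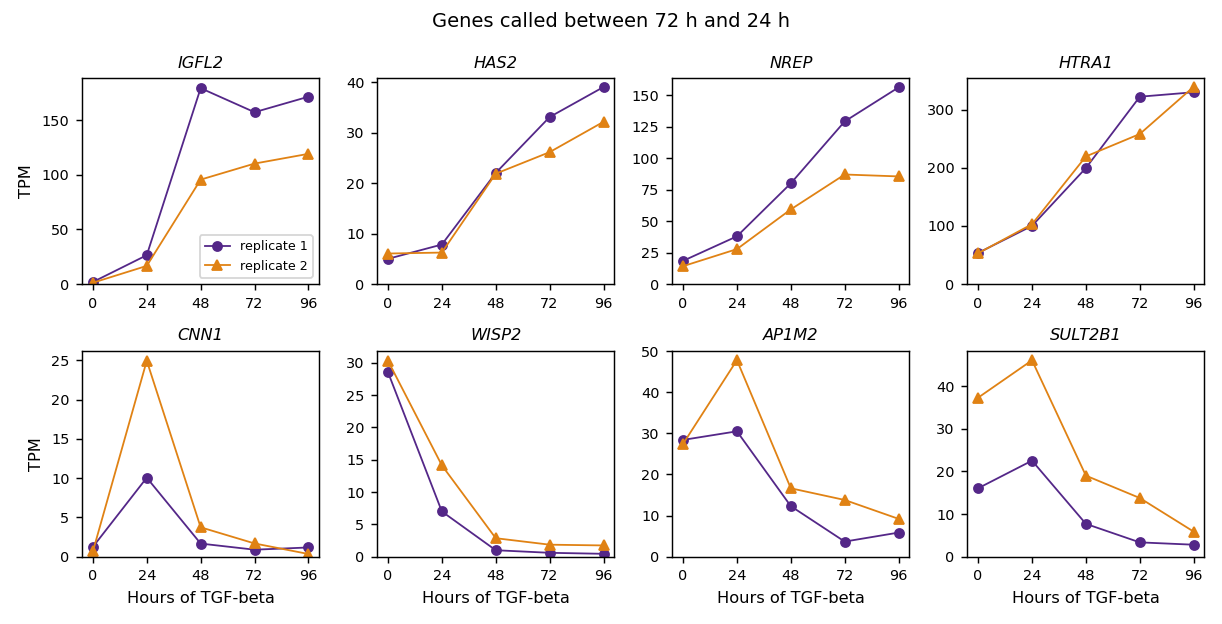
TPM (y axis, from 0) at 0, 24, 48, 72 and 96 h (x axis) for 8 genes called between 72 h and 24 h, with circles for replicate 1 and triangles for replicate 2. IGFL2, HAS2, NREP and HTRA1 are higher at 72 h than at 24 h, CNN1 is high at 24 h and near its 0 h level at 72 h, and WISP2, AP1M2 and SULT2B1 are lower at 72 h.

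Promoters of AP1M2 and SULT2B1 are printed because these epithelial genes fell between 24 h and 72 h and each holds 3 E-boxes (CAGGTG or its reverse complement CACCTG), the letters bound by ZEB and SNAI factors. An E-box occurred in 20.6% of the 35116 RefSeq promoters of this length, in 22.1% of 524 matched promoters of genes called lower at 72 h than at 0 h, and in 18.5% of 482 of genes called higher. Among matched epithelial junction genes, whatever their direction or call, it was found in 7 of 14. These were not divided by direction, and they include DSC2, which was called higher at 72 h. AP1M2 and SULT2B1 were picked after the matches were seen. AP1M2 lies on the minus strand at chr19:10587263-10587562 and SULT2B1 on the plus strand at chr19:48551922-48552221 of GRCh38.p14. E-boxes are in capitals, 57, 27 and 15 bases before the start in AP1M2, and 24 and 8 bases before and 18 after it in SULT2B1. The palindromic SMAD element GTCTAGAC was found in 0.202% of all promoters, in 1 of 482 of genes called higher and in 1 of 524 of genes called lower.
AP1M2: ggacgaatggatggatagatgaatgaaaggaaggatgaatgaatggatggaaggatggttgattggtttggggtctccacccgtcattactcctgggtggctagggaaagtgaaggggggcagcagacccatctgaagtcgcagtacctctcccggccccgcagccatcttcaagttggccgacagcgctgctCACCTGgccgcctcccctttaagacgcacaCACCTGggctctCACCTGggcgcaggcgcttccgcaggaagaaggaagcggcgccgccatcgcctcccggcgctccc
SULT2B1: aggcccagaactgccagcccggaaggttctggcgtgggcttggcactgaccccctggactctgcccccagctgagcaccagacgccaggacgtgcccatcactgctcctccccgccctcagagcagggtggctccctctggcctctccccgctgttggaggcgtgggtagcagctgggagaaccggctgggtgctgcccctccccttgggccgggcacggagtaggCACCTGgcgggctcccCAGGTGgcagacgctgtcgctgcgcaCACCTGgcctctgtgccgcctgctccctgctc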

How the data were processed

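RNA abundance was measured in 16 libraries, 2 at each of 8 times, from RNA extracted with Trizol and a TruSeq library kit (per the labels' protocols). Gene values in TPM were deposited by the authors, made with Bowtie and RSEM per the submitters' processing notes. Tool versions, genome build and annotation were not given in the sources used here. Coordinates are from GENCODE v29 (GRCh38) by Ensembl ID, matched for 20188 of 21216 tested genes, and promoters from RefSeq (GRCh38.p14) by symbol.

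From the deposited TPM, RN7SL1, RN7SL2, RN7SL3, RN7SK, RMRP and RPPH1 were dropped, each library was rescaled to a sum of 1000000 and log2(TPM + 1) was taken. A gene was kept where 2 or more of the 16 libraries reached 1 TPM (21216 of 57773). Testing used limma 3.58.1 (R 4.3.3), with a mean for each time, the replicate number as a block, a mean trend and Benjamini-Hochberg adjustment over all genes, two-sided (7 residual degrees of freedom). An exact permutation test of 2 against 2 cannot go below p = 0.333 and was not used.

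The block was used because the comparison pairs libraries by replicate number. Deviations of same-numbered libraries from the means of their times correlated above 0.1 in 27 of 28 pairs of times (lowest 0.0734, 72 h with 0 h 0.363); the labels name no shared batch.

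Members and 43 gene lists were chosen with earlier results of these data known, and a few list symbols matched nothing in the tables. The named genes are the 15 largest called rises and falls with a mean of at least 5 TPM and no overlap, up to 3 rising and 3 falling called members per list, fixed markers, and the largest called differences between 72 h and 24, 48 or 96 h. Alternatives were other scalings, pseudocounts, filters, fits and leaving out libraries. Some named genes are not reported here.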

Additional observations from a re-analysis of the deposited data

Results flagged for a closer look

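The effect at 72 h differed from that at 24 h, by the direct limma contrast of the 2 times, in 9 named genes. The log2 difference, 72 h minus 24 h, was 2.59 for IGFL2, 1.93 for HAS2, 1.68 for NREP and 1.497 for HTRA1, each higher in both 72 h libraries than in both 24 h libraries. It was -2.91 for CNN1, -2.36 for WISP2, -2.24 for AP1M2, -2.12 for the non-coding RNA AC006273.5 and -2.05 for SULT2B1, each lower in both 72 h libraries. Absence of overlap between 72 h and 24 h was part of the rule for naming such genes. Of these genes CNN1 was not called at 72 h against 0 h. Contrasts of 72 h with 48 h or 96 h gave no call by limma, and groups of 2 libraries are too small to look for a library that stands apart within a group.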

How the results depend on the processing

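Of the 142 named genes called at 72 h against 0 h, none changed direction under any setting tried, and 43 kept their call under all of them. Called genes moved the same way in both replicate numbers and the settings reuse these libraries, so a reversal was unlikely beforehand. CNN1, which was not called, had a log2 fold change of 0.22, and with 1 library left out from -0.25 (without 0 h replicate 2) to 0.69 (without 0 h replicate 1). Numbers of calls depended most on the replicate block and on the libraries used. Genes called higher, 742, numbered 353 with TPM as deposited, 317 with no replicate block, 366 with median-of-ratios scaling and no block, and 162 when only the 4 libraries compared were fitted. Genes called lower, 784, numbered 270 with no replicate block, 243 with median-of-ratios scaling and no block, and 81 with the 4 libraries. With 1 library left out the ranges were 274 to 387 higher and 194 to 584 lower. Members of all lists called, 226, numbered 105 with no replicate block, 107 with median-of-ratios scaling and no block, 79 with the 4 libraries and 105 to 205 with 1 library left out. Between 72 h and 24 h, 13 genes were called: 4 with TPM as deposited, 4 with a pseudocount of 0.1, 32 with no filter, 2 with no replicate block, 0 with the libraries of the times compared alone, 7 without 36 h and 48 h replicate 2, 3 with no mean trend, 1 with median-of-ratios scaling and no block, and 0 to 5 with 1 library left out. Between 72 h and 48 h, 0 became 3 with median-of-ratios scaling, 3 with no filter and 0 to 3 with 1 library left out. Between 72 h and 96 h, 0 became 17 with no filter, 1 with no mean trend and 0 to 16 with 1 library left out. Leaving out a library or fitting fewer of them lowers the number behind each comparison by construction; the cause of the other differences was not tested. Depth is unknown, so what it limits cannot be stated.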

Other observations

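Stress and immune genes held scattered calls. Of 17 heat shock genes, 2 were called higher and 3 lower. HSP90AA1, the inducible cytosolic HSP90, measured 393 and 346 TPM at 72 h, against 917 and 678 TPM at 0 h (log2 fold change -1.09 ± 0.21 SE, limma adjusted p = 0.00898), and CRYAB, a small heat shock protein, 3.21 and 6.84 TPM at 72 h, against 0.996 and 0.788 TPM at 0 h (log2 fold change 1.604 ± 0.41 SE, limma adjusted p = 0.0353). Both calls were lost without the replicate block, that of CRYAB when any of the 4 libraries was left out and that of HSP90AA1 when any other than 72 h replicate 2 was. Of 25 interferon and antigen presentation genes tested (26 listed), 1 was called higher and 4 lower. PSMB9, an immunoproteasome subunit, measured 3.43 and 4.43 TPM at 72 h, against 18.3 and 21.7 TPM at 0 h (log2 fold change -2.09 ± 0.27 SE, limma adjusted p = 6.68e-04) and kept its call in every setting tried. IFI44, an interferon-induced gene, measured 5.72 and 6.69 TPM at 72 h, against 1.14 and 0.228 TPM at 0 h (log2 fold change 2.15 ± 0.44 SE, limma adjusted p = 0.0116), a call lost when any library other than 0 h replicate 1 was left out.

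Most calls were protein-coding genes, 623 of those called higher and 690 of those called lower. Long intergenic non-coding RNAs made up 42 of the genes called higher and 26 of those called lower, and antisense RNAs 20 and 25. CTD-2066L21.3, a long intergenic RNA on chromosome 5, measured 63.4 and 29.6 TPM at 72 h, against 3.11 and 0 TPM at 0 h (log2 fold change 4.45 ± 0.68 SE, limma adjusted p = 0.00213). AC006273.5, on chromosome 19, measured 1.42 and 1.81 TPM at 72 h, against 16.9 and 21.7 TPM at 0 h (log2 fold change -2.95 ± 0.26 SE, limma adjusted p = 7.72e-05). RP11-674N23.1, on chromosome 18, measured 1.42 and 4.68 TPM at 72 h, against 43.2 and 63.97 TPM at 0 h (log2 fold change -3.85 ± 0.29 SE, limma adjusted p = 3.17e-05). All 3 kept their direction in both replicate numbers, as all called genes did. The times did not overlap in any of them, which the choice of CTD-2066L21.3 and RP11-674N23.1 required.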
